A study of Mus musculus with 42 samples.

Results

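Crat, Ogdh, Ago2, Ybx3, Pabpc1, Ap1b1, Mical3 and Rnf123 are 8 of the 15613 genes counted in the whole blood of 42 mice. They were selected because the study lists them as lowered by transcranial direct current stimulation (tDCS) in 6 mo. 3xTg-AD mice, so the tDCS difference in that strain is a description of the choice and carries no test here. The study also picked out 7 of the 8, all but Pabpc1, as differing between the strains and not with age in C57BL/6 mice, so those differences are likewise given without p-values for the 7. Of these, the study called Crat, Ybx3 and Ago2 between strains at both 3 and 6 months. It called Ap1b1, Ogdh, Rnf123 and Mical3 at 6 months and not at 3. Tested are tDCS in C57BL/6 mice, the site of the electrode, and the relation of each gene to erythroid RNA as deviations from group means. These are other contrasts than those of the selection, but they share mice with them.

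3xTg-AD mice, a transgenic model of Alzheimer's disease, carry mutated human transgenes, APP and MAPT among them, and C57BL/6 mice served as wild-type controls. At 6 months of age, 8 3xTg-AD mice had tDCS and 5 had sham stimulation with a hippocampal electrode, and 6 had tDCS and 4 sham with a prefrontal electrode. Of the 6 mo. C57BL/6 mice, 3 had tDCS and 6 had sham with the hippocampal electrode, and 4 had tDCS with the prefrontal electrode. At 3 months of age there were 3 sham mice of each strain, all with the hippocampal electrode. Each mouse had one epicranial electrode fixed to the skull, sham mice were handled alike without current, and blood was taken soon after the last session. The prefrontal electrode was given to no sham mouse of C57BL/6, so the tDCS contrast in that strain compared 3 with 6 hippocampal mice. The prefrontal protocol had more and shorter sessions than the hippocampal one, so that site and protocol cannot be told apart. The 3xTg-AD mice were male, the APP and MAPT transgenes of this line are driven by a neuronal promoter while blood was measured here, and nothing in the labels tells whether mice of a group shared a litter or a processing day, so p-values measure the spread between these mice.

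Most RNA in whole blood comes from reticulocytes, the young red cells that still hold RNA, and from leukocytes and platelets. As red cells mature they lose their mitochondria and other organelles, make haemoglobin from a shrinking store of messenger RNA, and clear most remaining proteins through the ubiquitin system. The genes described here have general roles in mitochondrial metabolism (Crat, Ogdh) and control of messenger RNA and microRNA (Ago2, Ybx3, Pabpc1). Others act in membrane traffic and cytoskeleton (Ap1b1, Mical3) and ubiquitin ligation (Rnf123). Whether they take part in red cell maturation was not tested.

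Libraries were made from the 3′ ends of transcripts after depletion of alpha and beta globin RNA, and held 13451155 to 37747255 counted reads per mouse, with 10.8 to 53.6% of them on haemoglobin genes. Levels are given as CPM, the read count relative to the library total, after scaling by TMM, a factor per library that makes the bulk of genes level between libraries. The factor was under 0.5 in 3 prefrontal 3xTg-AD mice, sham mouse FD and tDCS mice FE and tdcs7 (0.365 to 0.468), which also had the 3 highest erythroid scores of all mice (8.61 to 9.21). Fits of the 8 genes and their plain correlations with red cell measures are also given without this scaling. Marker lists, correlations between genes and correlations of deviations from group means are given with it alone. All 8 genes were read in every mouse, with as few as 16 reads of Rnf123, 21 of Mical3 and 162 of Ap1b1 in the mouse with fewest, and at least 275 reads of each of the other 5.

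Promoter sequence is shown for the genes with a window that held the letters searched for, so these were picked for their matches. That of Alas2, which encodes the erythroid enzyme of haem synthesis, is set beside them. RefSeq windows of build GRCm38.p6 were at hand for 5 of the 8 genes, 11 windows in all, and Crat, Ago2 and Pabpc1 had no entry. Windows of 300 bases (250 before the start and 50 after) were searched on both strands for the letters that GATA factors bind (AGATAA or AGATAG, and likewise TGATAA or TGATAG) and those of KLF factors (CCNCNCCC), the KLF matches being allowed to overlap one another. The 250 bases before the start are printed 5′ to 3′ on the gene's strand, with matched letters in capitals.
Ybx3, chr6:131388451-131388700, minus strand: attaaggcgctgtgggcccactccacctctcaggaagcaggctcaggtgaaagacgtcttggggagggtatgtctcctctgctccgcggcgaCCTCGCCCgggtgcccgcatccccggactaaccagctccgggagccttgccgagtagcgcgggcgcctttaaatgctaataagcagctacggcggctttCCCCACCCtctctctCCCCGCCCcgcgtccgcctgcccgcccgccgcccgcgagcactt
Ap1b1, chr11:4986574-4986823, plus strand: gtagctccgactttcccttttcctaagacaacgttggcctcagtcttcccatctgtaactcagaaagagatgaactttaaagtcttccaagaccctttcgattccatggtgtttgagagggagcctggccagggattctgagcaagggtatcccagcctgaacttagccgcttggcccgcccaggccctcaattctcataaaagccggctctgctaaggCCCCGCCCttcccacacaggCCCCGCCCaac
Ogdh, chr11:6291347-6291596, plus strand: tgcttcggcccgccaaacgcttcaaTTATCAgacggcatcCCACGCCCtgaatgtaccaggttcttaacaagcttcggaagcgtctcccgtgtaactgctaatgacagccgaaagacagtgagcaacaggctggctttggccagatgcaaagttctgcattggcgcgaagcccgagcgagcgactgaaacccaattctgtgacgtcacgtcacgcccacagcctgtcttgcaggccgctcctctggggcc
Mical3, chr6:121131023-121131272, minus strand: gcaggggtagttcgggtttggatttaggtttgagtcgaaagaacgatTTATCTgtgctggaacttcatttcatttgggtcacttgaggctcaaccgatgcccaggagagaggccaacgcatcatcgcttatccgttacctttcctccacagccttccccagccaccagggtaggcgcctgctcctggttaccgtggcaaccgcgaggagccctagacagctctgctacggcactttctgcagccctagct
Alas2, chrX:150547167-150547416, plus strand: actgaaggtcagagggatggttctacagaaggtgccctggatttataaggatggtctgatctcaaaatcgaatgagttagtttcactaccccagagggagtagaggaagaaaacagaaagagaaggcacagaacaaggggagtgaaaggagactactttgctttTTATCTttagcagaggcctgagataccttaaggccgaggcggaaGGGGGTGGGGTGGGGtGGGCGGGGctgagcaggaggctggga
Of the 11 windows, 3 held GATA letters (2 overlapping ones of Ogdh and 1 of Mical3), against 29.8% of all 32851 mouse windows of this length. KLF letters stood in 8 of the 11, against 49.5% of all windows, and the single window of Rnf123 held neither. The windows of one gene overlap and share letters, and a match is a description of the sequence and not a bound site.

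In 6 mo. 3xTg-AD mice, all 8 genes were lower after tDCS than after sham at both electrode sites. With site as covariate, the log2 fold change ran from -1.18 (Pabpc1) to -0.66 (Ap1b1), with a median of -0.84 against 0.02 over all 15607 genes fitted. Between 4.0 and 9.91% of all genes had a lower fold change than each of the 8, so changes of this size were not rare over all genes. Those include genes with few reads, and the share among genes of like level was not computed. Across all genes, edgeR's quasi-likelihood test called 0 genes (0%) at a Benjamini-Hochberg adjusted p under 0.05, with 1224 at an unadjusted p under 0.05, and DESeq2 called 37. Since this contrast chose the genes, their shared direction adds nothing to the choice. They remained lower in all 88 values from other fits that were not leave-one-out fits, between -1.52 and -0.52.

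**Figure D1:**
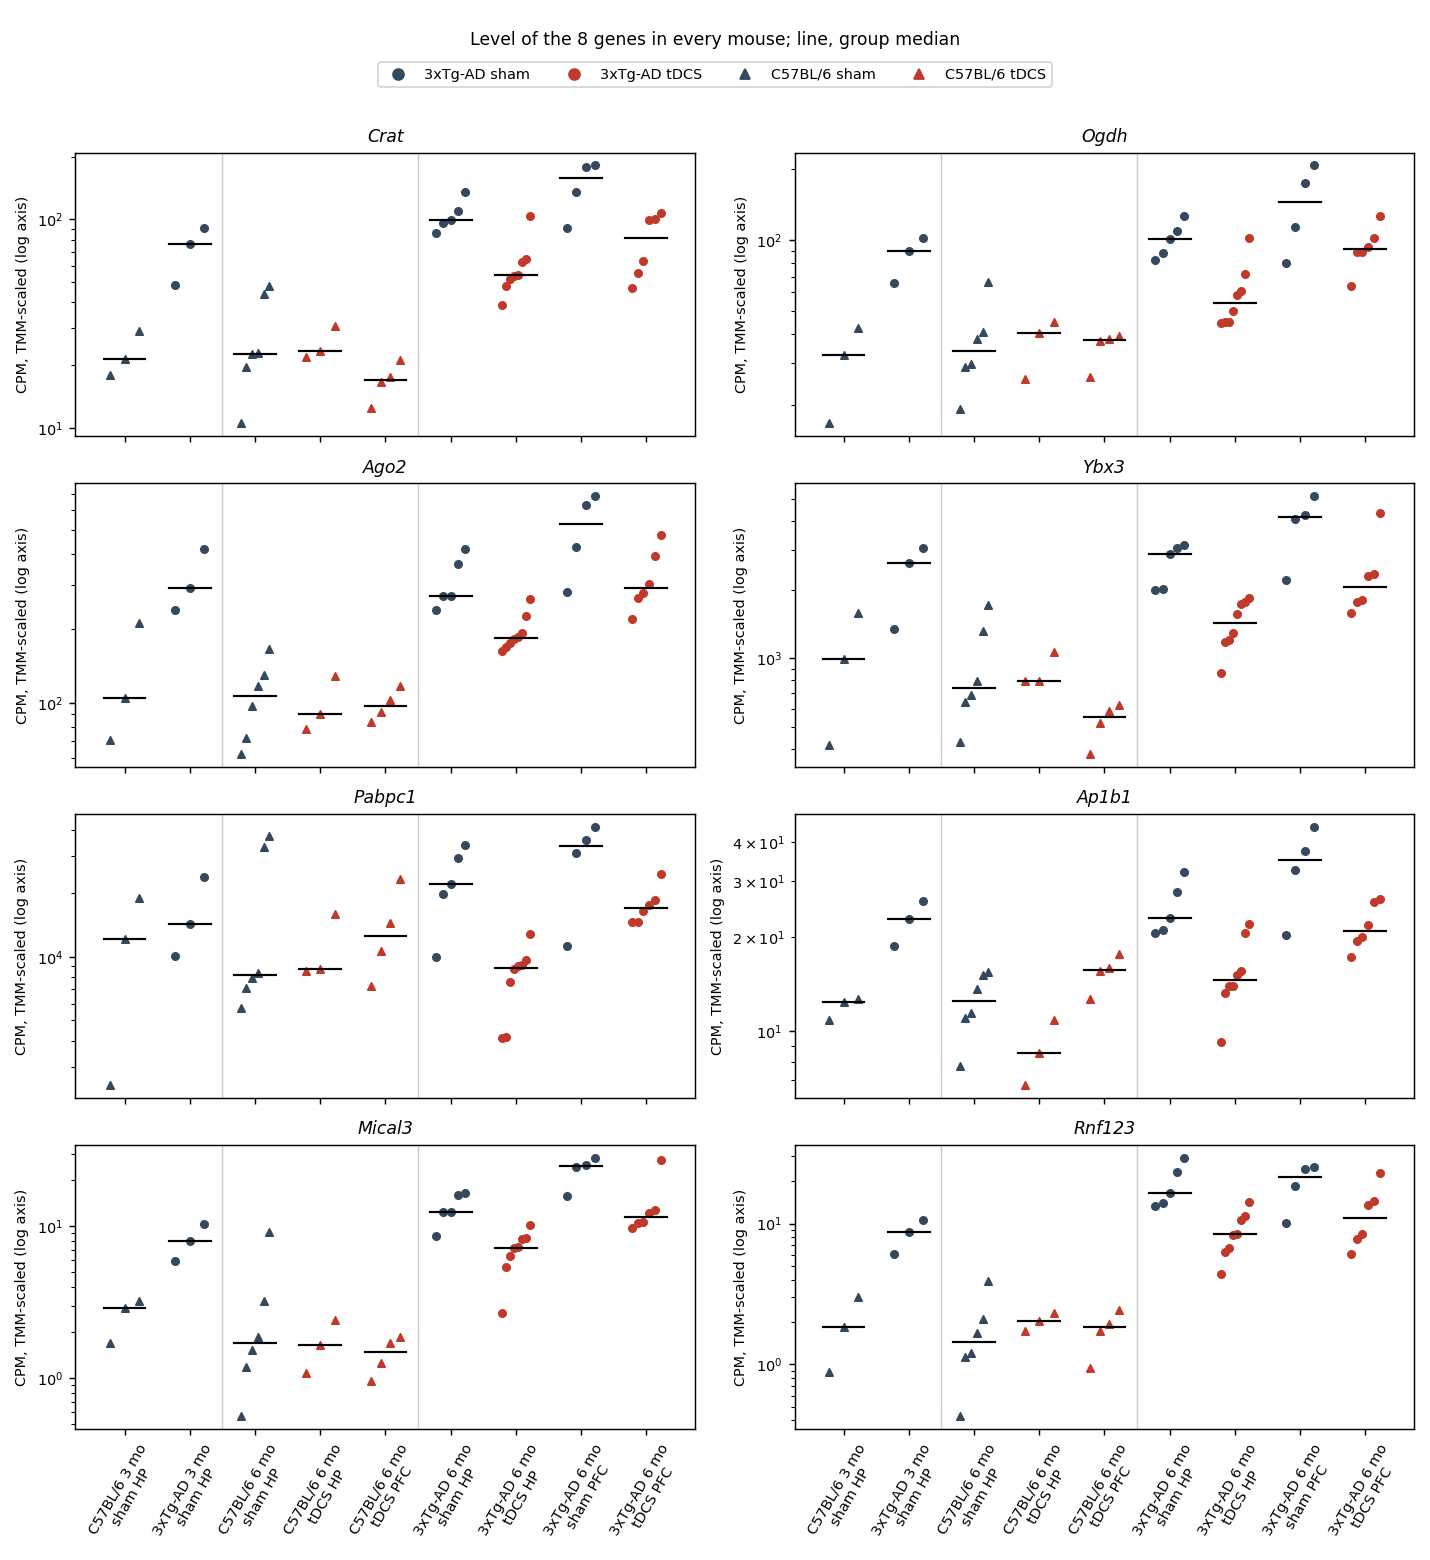
Level of each of the 8 genes in each mouse, as TMM-scaled CPM on a log axis, by strain, age, stimulation and electrode site (HP, hippocampal; PFC, prefrontal), with 1 panel per gene; each point is 1 mouse and each line is the group's median. In hippocampal 3xTg-AD mice the tDCS points of Ybx3 (858 to 1849 CPM) lie below every sham point (2000 to 3147 CPM), and the other 7 genes overlap.

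Among the metabolic genes, Crat encodes carnitine acetyltransferase, which moves acetyl groups between coenzyme A and carnitine in mitochondria. In hippocampal 3xTg-AD sham mice Crat was at 86.3, 96.1, 98.9, 110 and 135 CPM. In the 8 tDCS mice with that electrode it was lowest at 38.7, had a median of 53.8 and was highest at 104 CPM. Only mouse Q, at 104 CPM, lay within the sham range, and the other 7 were at or below 64.8 CPM. In prefrontal mice, sham values of Crat were 91.2, 136, 179 and 182 CPM and tDCS values ran from 47.0 through a median of 81.1 to 107 CPM. Mouse FB was the low sham mouse there, and 3 of the 6 tDCS mice lay above it. The fold change of Crat was -0.84 (SE 0.22) in hippocampal and -0.93 (SE 0.33) in prefrontal mice.

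Ogdh encodes the first enzyme of the 2-oxoglutarate dehydrogenase complex of the tricarboxylic acid cycle. It stood at 82.4, 88.5, 102, 109 and 127 CPM in hippocampal sham mice. Hippocampal tDCS mice ranged from 44.5 to 102 CPM with a median of 54.2. Mouse Q was again the only tDCS mouse within the sham range, and the next highest, T, was at 71.5 CPM. With the prefrontal electrode, sham mice had 79.6, 114, 175 and 207 CPM of Ogdh and tDCS mice 63.6 to 127 with a median of 91.6 CPM, so that 5 of 6 tDCS mice lay above the lowest sham mouse.

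Of the RNA-binding genes, Ago2 encodes the argonaute protein that cuts target RNA and also matures an erythroid microRNA without Dicer. Hippocampal sham mice had 238, 270, 271, 365 and 419 CPM of Ago2, and tDCS mice 162 to 262 CPM with a median of 183. The ranges met only through mouse Q (262 CPM) and sham mouse AQ (238 CPM). Prefrontal sham mice were spread over 280, 428, 632 and 684 CPM and tDCS mice over 219 to 479 CPM with a median of 292.

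Ybx3 encodes a Y-box protein with a cold-shock domain that binds DNA and messenger RNA. In hippocampal sham mice it was at 2000, 2013, 2873, 3043 and 3147 CPM, and in tDCS mice at 858 to 1849 CPM with a median of 1426. Ybx3 was the only one of the 8 genes with no overlap between these groups, and 0.231% of all genes had every hippocampal tDCS mouse below every sham mouse. Among prefrontal mice, sham values were 2204, 4099, 4256 and 5163 CPM and tDCS values 1586 to 4344 with a median of 2058 CPM. None of the 8 genes was free of overlap in prefrontal mice, where 0.394% of all genes were. Both shares come from the contrast that chose the genes, and nothing is read from them.

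Pabpc1, the cytoplasmic protein that covers the poly(A) tail of messenger RNA and links it to translation, had the largest fold change. Hippocampal sham mice held 9979, 19841, 22022, 29420 and 33786 CPM, and tDCS mice 4105 to 12848 CPM with a median of 8881. Sham mouse AQ was low, and mouse M was the only tDCS mouse above it. In prefrontal mice Pabpc1 was at 11273, 31043, 35692 and 41113 CPM after sham and at 14590 to 24568 CPM (median 16966) after tDCS, so all 6 tDCS mice lay above sham mouse FB and below the other 3. The fold change was -1.52 (SE 0.33) with the hippocampal and -0.78 (SE 0.45) with the prefrontal electrode. The difference between these was not tested.

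The 3 genes of traffic and ubiquitin ligation had fewer reads. Ap1b1, the large beta subunit of the adaptor complex that gathers clathrin at the Golgi and endosomes, had 20.6 to 32 CPM in hippocampal sham and 9.22 to 21.9 CPM in hippocampal tDCS mice, and only mouse AL reached the sham range. Mical3, a flavin monooxygenase that acts on actin and on exocytic vesicles, had 8.65 to 16.6 CPM after sham and 2.69 to 10.2 CPM after tDCS. Rnf123, the catalytic subunit of a ubiquitin ligase for the cell cycle inhibitor Cdkn1b, had 13.2 to 29.3 CPM after sham and 4.37 to 14.3 CPM after tDCS. For both Mical3 and Rnf123, mouse T was the only tDCS mouse within the sham range. In prefrontal mice the fold changes of Ap1b1, Mical3 and Rnf123 were -0.66 (SE 0.29), -0.78 (SE 0.34) and -0.71 (SE 0.39), beside -0.71 (SE 0.21), -0.95 (SE 0.26) and -1.15 (SE 0.27) in hippocampal mice.

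Which mice were high or low was shared by the genes. Sham mouse FB was the lowest prefrontal sham mouse for 8 of 8 genes, tDCS mouse FE the highest prefrontal tDCS mouse for 6, and tDCS mouse Z the lowest hippocampal tDCS mouse for 6. FE had the highest erythroid score of all mice (9.21) and FB the lowest of its group (7.67). Other mice went otherwise: Z was at 7.31, above AM (6.94) and AN (6.73) of its group. AQ had the highest score of the hippocampal 3xTg-AD sham mice (8.48), and was the lowest of them for 3 genes and the highest for 4. Each mouse is 1 library, so the 8 genes are not separate observations of it.

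**Figure D2:**
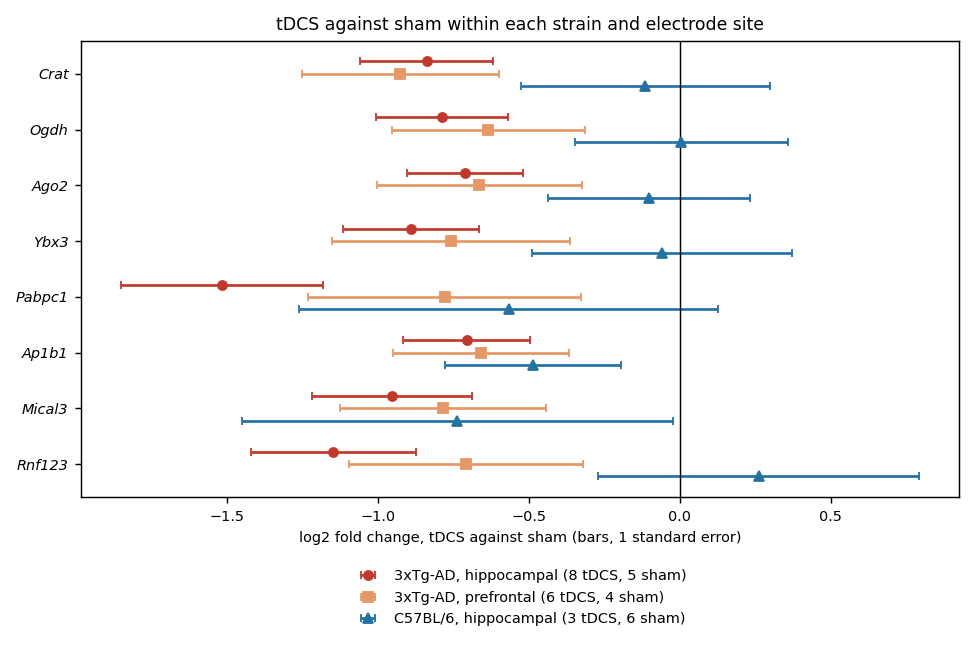
log2 fold change of tDCS against sham for each of the 8 genes, within each strain and electrode site, from edgeR fits to those mice alone; points are estimates and bars are 1 standard error. The hippocampal and prefrontal 3xTg-AD estimates lie between -1.52 and -0.63, and the C57BL/6 hippocampal estimates lie between -0.74 and 0.26.

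Blood cell markers also leaned in this contrast, though none passed the test. After tDCS in 3xTg-AD mice, 11 of 11 neutrophil markers were higher (median log2 fold change 1.06) and 12 of 15 erythroid markers were lower (median -0.31). Of the other lists, 14 of 16 genes of reticulocyte maturation and 8 of 8 B cell genes were at lower values (medians -0.24 and -0.25), and 10 of 11 T cell and 7 of 8 monocyte genes at higher ones (medians 0.23 and 0.37). Platelet and NK cell genes were evenly divided, and 5 of 8 keratinocyte genes were at lower values (median -0.67). The summed level of the neutrophil markers was 3670 to 33358 CPM in hippocampal tDCS mice and 2102 to 13005 CPM in hippocampal sham mice, and that of the erythroid markers 13887 to 26859 against 19624 to 37522 CPM. Of the 9 haemoglobin genes, 6 were higher (median 0.10). In bulk blood, fewer cells of a type and less RNA per cell cannot be told apart. With the erythroid score as a covariate the fold changes of the 8 genes were -1.14 to -0.55 (median -0.70), and with the haemoglobin share as a covariate the median was -0.81. The part of neutrophil and other leukocyte markers in the result was not tested.

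The partners of these genes in their pathways did not pass the test. Of 13 genes of carnitine and fatty acid oxidation, 10 were higher after tDCS (median log2 fold change 0.13), and of 17 other genes of the tricarboxylic acid cycle 11 were higher (median 0.09). The 12 genes of the argonaute pathway had a median of 0.18 and the 17 genes of poly(A) binding and translation one of -0.12. Of the 12 other subunits of the AP-1 and AP-2 adaptors 9 were lower (median -0.15), among them Ap2b1, the AP-2 counterpart of Ap1b1, at -0.56. The medians were -0.06 for 11 genes of the Rnf123 ligase and its relatives and 0.10 for 7 of the MICAL family, against 0.02 over all genes. Septin1, Ptp4a3 and Cbfa2t3, which the study also lists as lowered, were at -0.76, -0.75 and -0.76.

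In C57BL/6 mice of 6 months, none of the 8 genes passed the test for tDCS against sham. The 6 sham mice of this contrast were also the C57BL/6 arm of the strain comparison that picked out 7 of the genes as higher in 3xTg-AD, so for these 7 the contrast is not independent of the selection. edgeR called 0 of 15607 genes (0%), with 650 at an unadjusted p under 0.05, and DESeq2 called 0. The 8 fold changes ran from -0.73 to 0.26 with a median of -0.11, against -0.02 over all genes, and 6 were lower. Pabpc1, which the strains did not choose, had an estimate of -0.57 with a 95% interval of -1.998 to 0.863. For Crat the estimate was -0.11 with a 95% interval of -0.95 to 0.72, and for Ybx3 -0.06 with -0.92 to 0.80. The intervals of Pabpc1, Crat and Ybx3 hold both no change and the change described in 3xTg-AD mice over both sites. They also hold the values of hippocampal 3xTg-AD mice alone (-1.52, -0.84 and -0.89), which match these mice in site. For these genes, 3 tDCS and 6 sham hippocampal mice could not tell the 2 apart. The interval of Ogdh (-0.711 to 0.720) only just held its 3xTg-AD value over both sites (-0.705), and did not hold that of hippocampal 3xTg-AD mice alone (-0.789). That of Rnf123 (-0.86 to 1.39) held neither its 3xTg-AD value over both sites (-0.94) nor that of hippocampal 3xTg-AD mice alone (-1.15).

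The C57BL/6 values themselves overlapped for all 8 genes. Crat was at 21.9, 23.5 and 30.9 CPM in hippocampal tDCS mice and at 10.5 to 48.1 CPM (median 22.7) in sham mice. Ago2 was at 78.9, 90.1 and 129 CPM after tDCS and at 62.2 to 165 CPM (median 107) after sham. The 3 tDCS values of each of these genes lay inside the sham range. Rnf123 had few reads in this strain, at 1.74, 2.02 and 2.33 CPM after tDCS and 0.431 to 3.94 CPM after sham. The difference between strains in the tDCS effect was not tested, because one of its arms chose the genes.

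In 3xTg-AD sham mice with the hippocampal electrode, all 8 genes were higher than in C57BL/6 sham mice at 6 months. The log2 fold change was 3.51 (SE 0.43) for Rnf123, or 11.4-fold, 2.21 (SE 0.54) for Mical3, 1.91 (SE 0.34) for Crat, and 0.46 (SE 0.56) for Pabpc1, with a median of 1.51 over the 8 against -0.05 over all 15612 genes. Of all genes, 7.9% passed the test, and 3.94% had every C57BL/6 mouse below every 3xTg-AD mouse. That was so for 6 of the 8 genes, the exceptions being Mical3, through C57BL/6 mouse AY (9.23 CPM), and Pabpc1, through mice AY and BA (33062 and 37305 CPM). As the study chose 7 of the 8 on this comparison, nothing is read from these shares. With the erythroid score as covariate the median fell to 0.88 and Pabpc1 was lower in 3xTg-AD (-0.44). The score ran from 5.80 to 7.13 in these C57BL/6 mice and from 7.62 to 8.48 in the 3xTg-AD mice, without overlap. The strains thus share no score at which to compare them, and nothing is read from the adjusted values.

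The levels after tDCS can be set beside those of C57BL/6 sham mice. In hippocampal 3xTg-AD tDCS mice, Rnf123 (4.37 to 14.3 CPM) stayed above all 6 C57BL/6 sham mice (0.431 to 3.94 CPM), and Ago2 did so but for Z, the lowest mouse at 162 CPM, beside C57BL/6 mouse AY at 165. For Crat, Ogdh and Ybx3 the 2 groups overlapped in their low and high mice, while the medians were 53.8 against 22.7, 54.2 against 33.8 and 1426 against 740 CPM. For Pabpc1 they were 8881 and 8176 CPM.

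At 3 months levels of the 8 genes in 3xTg-AD mice again exceeded those in C57BL/6 mice, by log2 fold changes of 0.52 (Pabpc1) to 2.16 (Rnf123) and a median of 1.40. At this age the study had called Crat, Ybx3 and Ago2, but not Ap1b1, Ogdh, Rnf123 or Mical3. With the erythroid score as covariate, Pabpc1 was lower in 3xTg-AD (-1.03) and Ybx3 nearly level (0.03). The score again did not overlap, at 6.00 to 7.03 in C57BL/6 and 7.16 to 7.61 in 3xTg-AD mice. Nothing is read from these adjusted values either. Among all 15544 genes 0.373% passed the test and 10.7% had every C57BL/6 mouse below every 3xTg-AD mouse, as had 6 of the 8 genes, all but Ybx3 and Pabpc1. The study's sorting of all but Pabpc1 used this comparison, so nothing is read from these shares. Rnf123 was at 6.10, 8.69 and 10.6 CPM in 3xTg-AD and at 0.886, 1.84 and 3.03 CPM in C57BL/6 mice. Ybx3 was at 1350, 2625 and 3066 against 415, 994 and 1575 CPM. C57BL/6 mouse AS was the lowest for 7 of the 8 genes and had the largest TMM factor of all mice (1.95). Without AS, 657 genes passed instead of 58, and the median of the 8 stayed between 1.18 and 1.82 when any 1 of the 6 mice was left out.

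Between 6 and 3 months in C57BL/6 sham mice, the fold changes of the 8 genes ran from -0.26 (Ago2) to 0.59 (Pabpc1). edgeR called 0 of 15595 genes (0%), with 1754 at an unadjusted p under 0.05, while DESeq2 called 192 and none of the 8. The selection had left out genes that the study called for age, so for 7 of the 8 nothing is read from this. For Pabpc1 the 95% interval was -1.28 to 2.46 (adjusted p = 0.855 in edgeR).

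Of the comparisons in which the 8 genes were tested, only the electrode site in 3xTg-AD mice had any that passed edgeR's test. The strain comparisons and tDCS in 3xTg-AD mice are not among these, since they chose the genes. Among 6 mo. 3xTg-AD mice, with stimulation as covariate, all 8 genes were higher with the prefrontal than with the hippocampal electrode under TMM scaling, 5 of them being lower under library totals, and the median log2 fold change was 0.63 against -0.14 over all genes and 0.16 over genes of at least 10 CPM. edgeR called 5 of the 8, where 8.99% of all 15607 genes passed. These were Mical3 (0.93, SE 0.21, adjusted p = 0.0067), Ago2 (0.72, SE 0.17, adjusted p = 0.0088), Pabpc1 (0.83, SE 0.26, adjusted p = 0.039), Ybx3 (0.67, SE 0.20, adjusted p = 0.031) and Ogdh (0.60, SE 0.17, adjusted p = 0.030). Crat (0.43), Ap1b1 (0.47) and Rnf123 (0.29) did not pass, with adjusted p of 0.125, 0.063 and 0.452 in the same edgeR fit.

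This difference depended on the scaling. With library totals in place of TMM factors the median of the 8 was -0.04, Ybx3 and Ogdh turned to -0.02 and -0.05, and none passed, while 3059 genes did, 3029 of them lower. Without FD, FE and tdcs7 the median was 0.49, Rnf123 was at -0.03 and none of the 8 passed. With the erythroid score as covariate the median was 0.46, Rnf123 was at -0.20 and again none passed. Ago2 and Mical3 passed whichever 1 mouse was left out, the number that passed being 2 without hippocampal sham mouse R or prefrontal sham mouse FC and up to 6 otherwise.

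**Figure D3:**
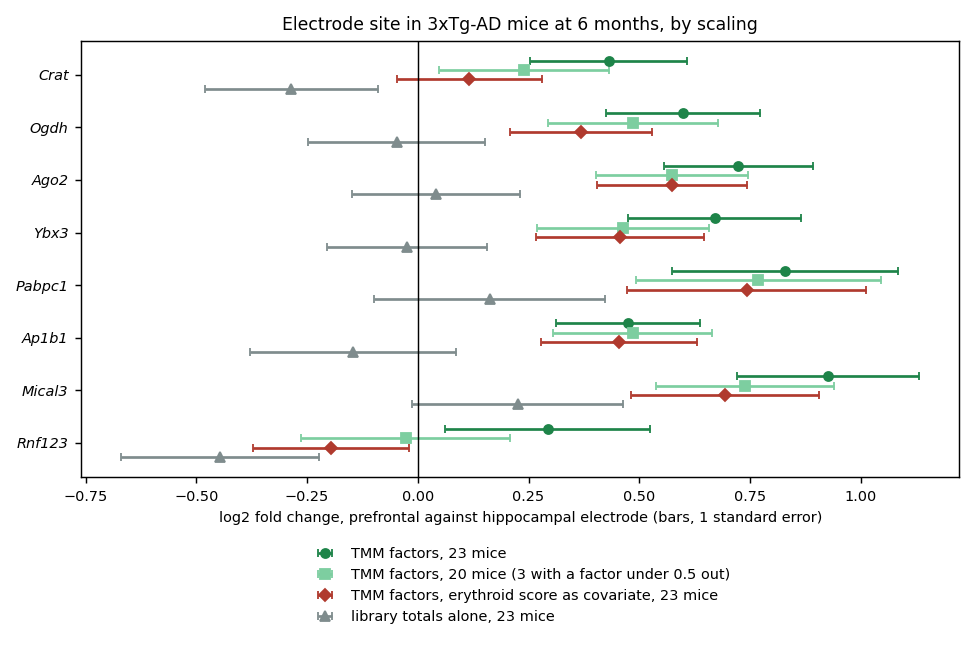
log2 fold change of the prefrontal against the hippocampal electrode in 6 mo. 3xTg-AD mice for each of the 8 genes in 4 fits (TMM factors, TMM factors without 3 mice, TMM factors with the erythroid score as covariate, library totals); markers are estimates and bars are 1 standard error. With TMM factors and all 23 mice the estimates lie between 0.29 and 0.93, and with library totals their median is -0.04.

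Markers of several blood cells differed with the site in the same fit, where 8.99% of all genes passed. With the prefrontal electrode, 15 of 15 erythroid genes were higher (5 passed), as were 15 of 16 genes of reticulocyte maturation (4 passed), 11 of 12 platelet genes (5 passed) and 9 of 9 haemoglobin genes (3 passed). All 8 keratinocyte genes were lower, and 5 passed. Values were also lower for 8 of 8 B cell genes (0 passed), 8 of 11 neutrophil genes (1 passed), 9 of 11 T cell genes (0 passed) and 6 of 8 monocyte genes (0 passed). The summed level of the keratinocyte genes was 11 to 1225 CPM in hippocampal and 1.69 to 259 CPM in prefrontal 3xTg-AD mice. Among pathway partners, Ybx1, a relative of Ybx3, rose by 1.09, Pabpc4, a relative of Pabpc1, by 0.93 and Ubac1, the partner of Rnf123 in its ligase, by 1.11, and Tnrc6a and Tnrc6c, which act with Ago2, fell by 0.58 and 1.26. By list, the poly(A) and translation genes had 8 of 17 higher and a median of 0.00, with 3 higher past the test, and the genes of the Rnf123 ligase and its relatives had 7 of 11 higher, with 3 higher and 1 lower past it. Of the argonaute list 2 of 12 were lower and none higher past the test, of the adaptor list 2 of 12 were higher, of the tricarboxylic acid list 1 of 17 was higher and 2 lower, of the carnitine and fatty acid list 1 of 13 was lower, and of the MICAL family 1 of 7 was higher. The part of erythroid and skin cell RNA in the site difference was not tested beyond the covariate above.

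Among the 7 C57BL/6 tDCS mice the site was tested as well. None of the 8 genes passed in edgeR, where 2.88% of 15591 genes did, and DESeq2 called 1 (Ybx3) of them. Ybx3 was at 378, 518, 584 and 622 CPM in prefrontal and 792, 796 and 1068 CPM in hippocampal mice, with no overlap (log2 fold change -0.82, SE 0.30, adjusted p = 0.198 in edgeR). Crat was the other gene with every prefrontal mouse below every hippocampal one (-0.65, adjusted p = 0.264 in edgeR), which held for 7.35% of all genes. Ap1b1 was at 12.7, 15.5, 15.9 and 17.7 against 6.74, 8.5 and 10.9 CPM, higher with the prefrontal electrode (0.76, adjusted p = 0.198 in edgeR), and 6.61% of all genes had every prefrontal mouse above every hippocampal one. The strains' site differences were not tested against each other.

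Under TMM scaling, levels of 5 of the 8 genes went with erythroid RNA over all 42 mice, against 3 in 3xTg-AD mice and 0 in C57BL/6 mice. The erythroid score is the mean log2 CPM of 15 genes of red cell membrane and haem synthesis, such as Alas2 and Epb42. Relations were tested on deviations from group means, permuted within groups, since the plain values hold the differences between groups that chose the genes. Among the 26 3xTg-AD mice, Pearson's r of these deviations had a median of 0.47 over the 8 genes, and 3 of the 8 passed a two-sided permutation test at a Benjamini-Hochberg adjusted p under 0.05 over the 48 relations computed. These were Rnf123 (r = 0.83, rho 0.81, adjusted p = 0.00048 by permutation), Ogdh (r = 0.63, rho 0.69, adjusted p = 0.0046 by permutation) and Crat (r = 0.71, rho 0.71, adjusted p = 0.010 by permutation). Without FE and BN, the mice farthest from the median, their r was 0.79, 0.65 and 0.64. Pabpc1 (r = 0.15, rho 0.22, adjusted p = 0.64 by permutation) and Ap1b1 (r = 0.16, rho 0.20, adjusted p = 0.64 by permutation) had the lowest values. Other genes were not put through this test, so the share of all genes that would pass is not known, here or below. The counts that passed are therefore not read as particular to the 8.

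Among the 16 C57BL/6 mice the median r was 0.45 and none of the 8 passed. Ago2 was nearest (r = 0.72, rho 0.76, adjusted p = 0.056 by permutation), and its r was 0.61 without AZ and AS. Over all 42 mice the median r was 0.46 and 5 passed, Rnf123, Crat, Ago2, Ybx3 and Ogdh, with r of 0.45 to 0.70 and adjusted p of 0.00072 to 0.039 by permutation. Without FE and AZ these 5 had r of 0.39 to 0.69.

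As plain values, given as a description, the median r was 0.63 in 3xTg-AD, 0.36 in C57BL/6 and 0.80 over all mice, where it ran from 0.49 (Pabpc1) to 0.86 (Rnf123). The pooled mice hold the difference between the strains, which lie partly apart in both measures. The score and the genes share each library and its scaling. The score itself fell with the TMM factor over the 42 mice (r = -0.83, rho -0.70, adjusted p = 1.5e-05 by permutation over 3 relations, and r = -0.77 without FE and tdcs7). Plain r were ranked among 3287 other genes with a mean of at least 10 CPM. In 3xTg-AD mice 85.2% of these had a lower r than Crat and 69.6% a lower one than Pabpc1, so r of this size were common there. Rnf123 and Mical3 lay below that level and were not ranked.

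**Figure D4:**
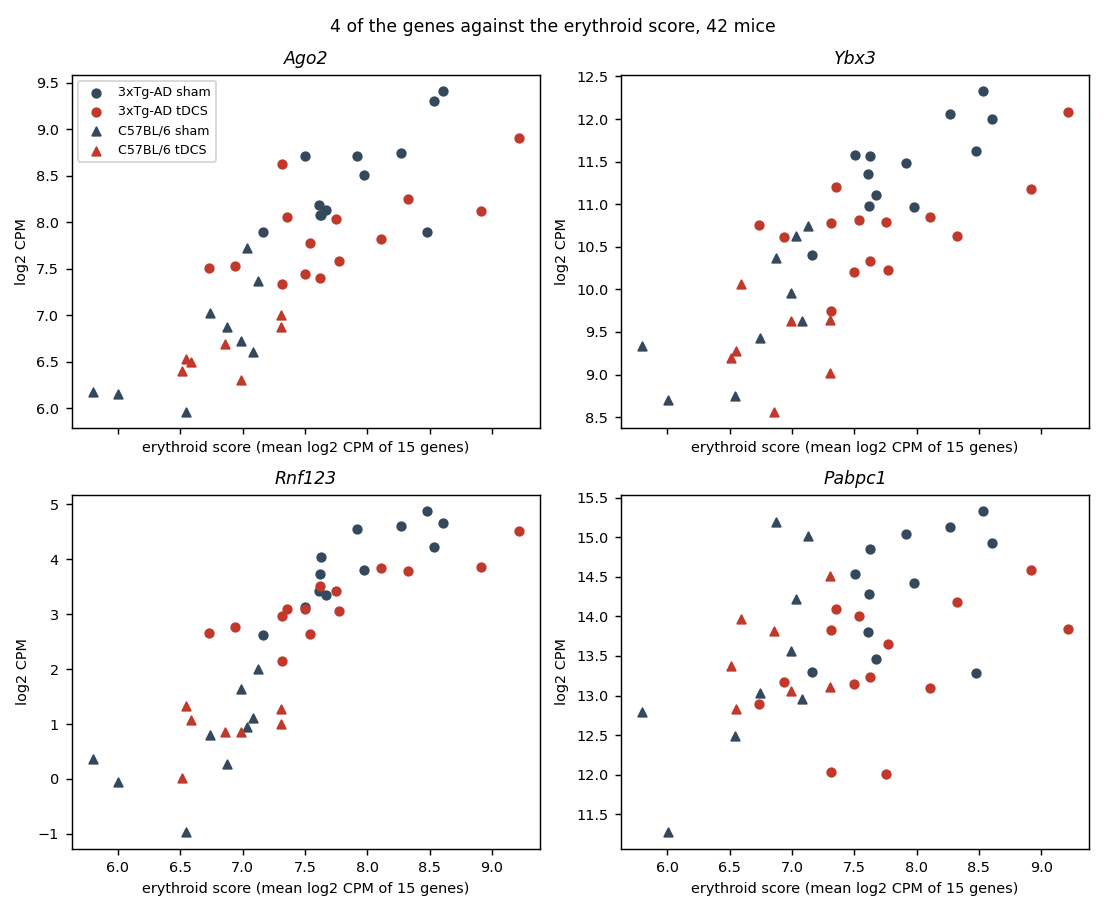
Level of Ago2, Ybx3, Rnf123 and Pabpc1 (log2 CPM) against the erythroid score (mean log2 CPM of 15 erythroid genes) in 42 mice, 1 panel per gene, with strain and stimulation marked; each point is 1 mouse. The r over all mice is 0.49 for Pabpc1 and 0.86 for Rnf123, and C57BL/6 mice lie lower than 3xTg-AD mice for Rnf123.

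The share of reads on haemoglobin genes had a looser relation to the 8 genes. As deviations from group means, none of the 8 passed over all 42 mice (median r 0.15), in 3xTg-AD mice (-0.06) or in C57BL/6 mice (0.36), the adjusted p being 0.22 to 0.81 by permutation. As plain values r was 0.24 to 0.42 over the 42 mice. Globin RNA was depleted before sequencing, so this share reflects that step as well as the blood.

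The plain values changed with the scaling, and the deviations from group means were not computed without TMM factors. With library totals in place of TMM factors, the median r with the erythroid score fell to 0.36 in 3xTg-AD and 0.01 in C57BL/6 mice, and r with the haemoglobin share was below 0 for 8 of 8 genes in 3xTg-AD mice (median -0.56). When haemoglobin reads were also taken out of the totals, the erythroid median was 0.65 over all mice and 0.09 in 3xTg-AD mice, where r ran from -0.18 to 0.52 and was above 0 for 5 of the 8 genes.

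**Figure D5:**
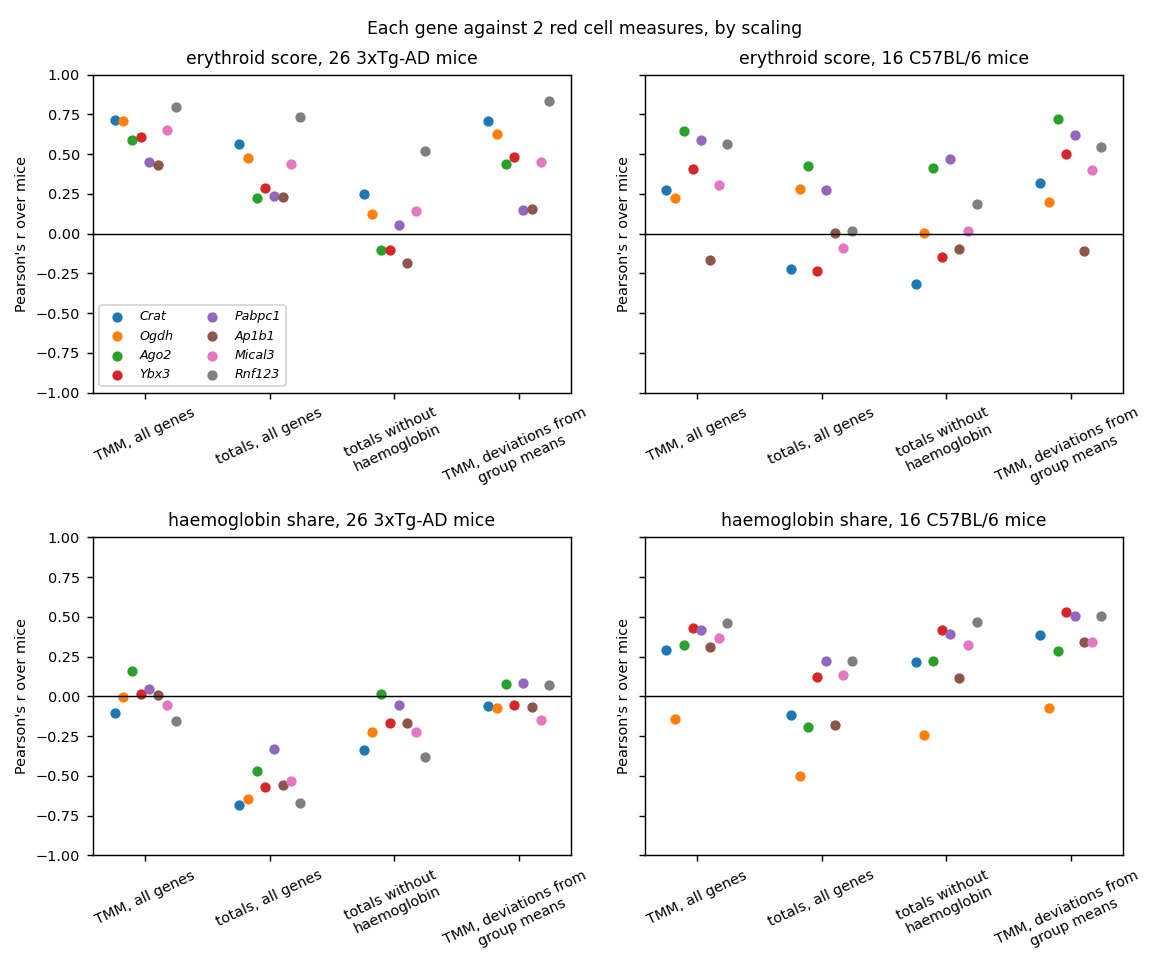
Pearson's r of the 8 genes with the erythroid score and with the haemoglobin share in 26 3xTg-AD and 16 C57BL/6 mice under 4 scalings; each point is 1 gene. In 3xTg-AD mice the median r with the erythroid score is 0.63 with TMM factors and 0.36 with library totals, and all 8 points for the haemoglobin share lie below 0 with library totals.

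The 8 genes were closely related to each other. Over the 28 pairs and 42 mice, the median r of log2 CPM was 0.87 (0.43 to 0.93), with the closest pair Crat and Ybx3 (0.93). It was 0.74 within 3xTg-AD and 0.55 within C57BL/6 mice. Over all mice Pabpc1 had the lowest mean r with the other 7, at 0.54 against 0.74 to 0.84. That order did not hold within strains. In C57BL/6 mice Ap1b1 was lowest, at 0.185 against 0.54 for Pabpc1, and in 3xTg-AD mice these were level at 0.68 and 0.69. All 8 were selected on the tDCS contrast, and 7 of them, without Pabpc1, on the strain comparisons, and these differences pool into the values over all mice. The values within 3xTg-AD mice hold the tDCS contrast too, since sham and tDCS mice are pooled there, so a shared relation is partly built in.

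Among 3300 genes with a mean of at least 10 CPM, the genes most like Crat over the 42 mice were Ptpa (r = 0.93), Tusc1 and Tmem134. Tusc1 was also nearest to Ybx3 (0.92), and Ptpa to Ago2 (0.94). Rnf123 was nearest to Rbm14 (0.94) and Tmod1, a tropomodulin of the red cell skeleton, Mical3 to Ell2 (0.94) and Ap1b1 to Atp6v0d1 (0.84). The gene most like Pabpc1 was Gm16580 (0.88), a processed pseudogene on chromosome 17, and 56.2% of its 1018 stretches of 31 bases occur in Pabpc1 transcripts, so their reads may have been split between them.

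The genes lie on 5 chromosomes in build mm10: Crat at chr2:30400471-30415813, Rnf123 at chr9:108051534-108083346, Ap1b1 at chr11:4986824-5042791, Ogdh at chr11:6291633-6356642, Ybx3 at chr6:131364855-131388476, Mical3 at chr6:120931707-121130999, Ago2 at chr15:73095844-73184935 and Pabpc1 at chr15:36595661-36609668. Ap1b1 and Ogdh are on the plus strand and the other 6 on the minus strand. The 3′ ends, where these libraries place their reads, overlap genes of the opposite strand for Ago2 (Chrac1, over 1711 bases), Rnf123 (Gmppb, 1268 bases) and Crat (Dolpp1, 59 bases). Whether reads were counted by strand is not given in the sources used here, so reads of such partners may be included.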

How the data were processed

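Whole blood RNA of 42 mice was depleted of globin, made into 3′ QuantSeq libraries and sequenced on the Ion Proton. The authors trimmed the reads (cutadapt 1.14), aligned them to mm10 and counted them per gene with STAR 2.6, and deposited whole-number read counts without normalization. The strand setting is not given in the sources used here. Depth was 13451155 to 37747255 reads, with a median of 23881367. Of 15613 identifiers, 15607 were named from the reference annotation.

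In R 4.3.3, edgeR 4.0.16 (TMM, glmQLFit, glmQLFTest) was run on every gene that had 1 read or more among the mice of a comparison, and a gene was called at a Benjamini-Hochberg adjusted p under 0.05. The tDCS fits had site as covariate, and the RNA integrity number of the study's model was not used. log2 CPM had a prior count of 2. Correlations were computed in Python 3.11.15 with 100000 permutations, and the p-values given are those of deviations from group means permuted within groups, a test added after the data were seen in place of permuting all mice of a strain. The alternatives were DESeq2 1.42.0, RLE factors, filterByExpr, haemoglobin genes taken out, an erythroid covariate, another prior count, single sites, and each mouse left out. Library totals without TMM, the haemoglobin covariate and leaving out 3 mice were added after the data were seen. The scripts were tested on simulated data. The 8 genes and all lists were chosen with earlier results of these data known. The genes named are the 8, Septin1, Ptp4a3 and Cbfa2t3, marker and pathway list genes with the smallest p, close relatives, and genes among the 3 most like each of the 8. Some items that this rule names are not reported here. Read numbers cover counting error only, as no molecular identifiers were used.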

Additional observations from a re-analysis of the deposited data

Results flagged for a closer look

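Of 48 pairs of a gene and a group of 4 to 10 mice, 6 held 1 mouse whose gap to the next, relative to the range of its group, passed Dixon's 95% limit, which chance alone does in about 1 in 20 groups. Among hippocampal 3xTg-AD tDCS mice, mouse Q was far above the other 7 for Crat (104 CPM) and Ogdh (102 CPM). Among prefrontal 3xTg-AD tDCS mice, FE was far above the other 5 for Ybx3 (4344 CPM) and Mical3 (27.2 CPM), and this library had a TMM factor of 0.430 and the highest erythroid score (9.21). Among C57BL/6 sham mice, AY was far above the rest for Mical3 (9.23 CPM). Among prefrontal C57BL/6 tDCS mice, DU was far below the others for Ogdh (26.3 CPM).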

How the results depend on the processing

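The 8 genes were lower after tDCS in 3xTg-AD mice under each alternative run, with a median of -0.92 to -0.78 when any 1 mouse was left out. DESeq2 called 37 genes there and edgeR 0, and 0 in each leave-one-out fit, as in C57BL/6 mice (0, median of the 8 -0.26 to 0.09). No paired analysis was run, since sham and tDCS mice were different animals and the labels give no pairing between them.

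For the site in 3xTg-AD mice, the count of genes called was 471 with the erythroid covariate, 35 in sham mice alone, 85 in tDCS mice alone, 3059 with library totals and 354 without the 3 mice of low TMM factor, and 0 of the 8 genes passed in any of these 5 fits. With library totals the median of the 8 was -0.04, Ybx3 was at -0.02 and Ogdh at -0.05. Leaving out 1 mouse gave 941 to 1650 genes, a median of 0.53 to 0.71 and 2 to 6 of the 8. For the site in C57BL/6 tDCS mice, filterByExpr gave 285 genes and DESeq2 720, 1 of them among the 8, library totals a median of 0.12, and leaving out 1 mouse 273 (without X) to 616 genes, a median of -0.30 to 0.01 and 0 of the 8.

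For the strains at 3 months, DESeq2 called 489 genes, the erythroid covariate 257 and library totals 27, with medians of 0.77 (covariate) and 0.95 (totals). Leaving out 1 mouse gave 18 (without AW) to 657 genes (without AS), 20 without AV or AX and 29 without I, and a median of 1.18 to 1.82. At 6 months the erythroid covariate gave 270 genes and a median of 0.88, library totals 813 genes, and leaving out 1 mouse 781 (without P) to 1272 genes and a median of 1.36 to 1.74. The erythroid score did not overlap between the strains in either comparison, so nothing is read from their fits with that covariate. For age, DESeq2 called 192 genes, and leaving out 1 mouse gave 0 to 280 genes (280 without AS, 12 without AA, 2 without I), a median of -0.16 to 0.37 and 0 of the 8.

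The median r with the erythroid score was 0.621 over all mice with library totals, 0.654 with totals without haemoglobin and 0.464 as deviations from group means. In the same order it was 0.361, 0.087 and 0.467 in 3xTg-AD mice, and 0.396, 0.493 and 0.572 in prefrontal mice. It was 0.009 with either total in C57BL/6 mice and 0.401 as deviations in hippocampal mice. The median r with the haemoglobin share was 0.025 over all mice, -0.56 in 3xTg-AD, 0.004 in C57BL/6, -0.04 in hippocampal and 0.065 in prefrontal mice with library totals, and 0.152 over all and 0.025 in prefrontal mice as deviations. The cause of these changes was not tested. In 142 other alternatives of these summaries, a count moved by no more than 1.5 times and a median by less than the median standard error of the 8 genes or of r.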
